A study of Rattus norvegicus with 16 samples.

Results

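Potassium channel subunits were examined in the thoracic aorta of ageing rats. The members were all probe sets of the array whose platform annotation gave 1 gene symbol that starts with Kcn, together with those of Abcc8 and Abcc9, the sulfonylurea receptors that complete the ATP-sensitive potassium channels. They came to 87 probe sets of 56 genes, out of 8799 probe sets in all. The rule for members used names only and no measured value, though it was set with earlier results of these data known.

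The tissue was a 1 cm piece of descending thoracic aorta from rats aged 3, 6, 15 or 28 months, with 4 rats per age and 1 Affymetrix rat array per rat, 16 arrays in all. The labels give no strain, sex, treatment or genotype and leave unstated whether surrounding fat was trimmed from the vessel. The study's title speaks of a disease of the aorta that progresses with age, and the ages are compared here with the 3-month rats as the youngest group. Values are log2(signal + 16) of the deposited MAS5 signals, given for replicates 1 to 4 in that order or as mean ± SD over 4 arrays.

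Potassium channels let potassium leave the smooth muscle cell, which pulls the membrane potential down, closes voltage-gated calcium channels and relaxes the vessel. Arterial smooth muscle is known for several kinds: large-conductance calcium-activated channels (BK channels), voltage-gated channels, inward rectifiers including the ATP-sensitive channels, and two-pore background channels. Most are built from a pore-forming subunit and an accessory subunit that sets its gating, so the subunits are described below by role.

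The promoters of 4 bright genes are shown, whose products are known to form pairs of subunits, Kcnj8 with Abcc9 and Kcnma1 with Kcnmb1. Promoters of Kcnk3, Kcnj11 and Abcc8 were not in the reference used. Sequences are those of RefSeq on rat build GRCr8, 250 bases before to 50 bases after the gene's start, written 5′ to 3′ along the gene. They lie at chr4:177246499-177246798 on the minus strand (Kcnj8), chr4:177386299-177386598 on the minus strand (Abcc9), chr15:351675-351974 on the plus strand (Kcnma1) and chr10:19061849-19062148 on the plus strand (Kcnmb1). Capitals mark the GC box (GGGCGG on either strand) and the E-box (CANNTG); neighbouring GC boxes overlap.
Kcnj8: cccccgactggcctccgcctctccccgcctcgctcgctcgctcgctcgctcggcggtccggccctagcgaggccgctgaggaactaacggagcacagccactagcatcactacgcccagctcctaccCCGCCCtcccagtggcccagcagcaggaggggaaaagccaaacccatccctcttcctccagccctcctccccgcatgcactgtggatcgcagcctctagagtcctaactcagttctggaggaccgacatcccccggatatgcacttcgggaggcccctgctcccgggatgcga
Abcc9: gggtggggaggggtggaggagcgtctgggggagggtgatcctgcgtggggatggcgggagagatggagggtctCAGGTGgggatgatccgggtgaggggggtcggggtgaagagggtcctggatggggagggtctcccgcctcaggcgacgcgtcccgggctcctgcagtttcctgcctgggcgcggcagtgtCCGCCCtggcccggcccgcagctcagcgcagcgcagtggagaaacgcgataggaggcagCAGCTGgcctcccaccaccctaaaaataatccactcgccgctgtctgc
Kcnma1: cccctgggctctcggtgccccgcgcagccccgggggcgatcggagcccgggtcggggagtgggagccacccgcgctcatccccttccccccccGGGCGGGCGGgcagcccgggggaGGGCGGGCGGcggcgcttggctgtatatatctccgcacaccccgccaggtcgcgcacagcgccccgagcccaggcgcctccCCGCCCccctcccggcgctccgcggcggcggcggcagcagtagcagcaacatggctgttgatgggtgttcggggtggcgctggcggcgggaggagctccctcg
Kcnmb1: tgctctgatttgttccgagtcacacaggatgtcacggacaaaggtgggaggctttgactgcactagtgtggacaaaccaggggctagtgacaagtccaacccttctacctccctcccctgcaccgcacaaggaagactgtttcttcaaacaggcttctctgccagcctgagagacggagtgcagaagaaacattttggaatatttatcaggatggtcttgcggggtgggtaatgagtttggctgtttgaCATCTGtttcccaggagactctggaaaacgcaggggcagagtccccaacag

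The promoters of Kcnj8, Abcc9 and Kcnma1 were rich in G and C, at 67.0%, 69.0% and 78.3%, and that of Kcnmb1 held 51.7%. The GC box occurred 5 times in the Kcnma1 window, 1 time each in those of Kcnj8 and Abcc9, and 0 times in that of Kcnmb1. The Kcnmb1 window held 1 E-box and that of Abcc9 held 2. None of the 4 windows held TATAAA, the nuclear receptor half-site AGGTCA or a CArG box, the element known to bind serum response factor in smooth muscle genes. Of all 33469 rat promoters of this length, 33.1% held the GC box, 72.1% the E-box, 14.2% TATAAA, 16.2% AGGTCA and 1.64% a CArG box, with both strands searched. Such matches describe the letters and show no binding. In the RefSeq gene table Kcnj8 and Abcc9 stand next to each other on chromosome 4, with 0 protein-coding genes between them, as do Kcnj11 and Abcc8 on chromosome 1.

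Of the 87 probe sets, 18 from 13 genes were bright, with a mean of 8 or more over the 16 arrays. Over all 8740 probe sets other than controls that share was 49.8%. The bright genes were the BK subunits Kcnmb1 and Kcnma1, the small-conductance calcium-activated channel Kcnn1, the ether-a-go-go channels Kcnh2 and Kcnh3, and the inward rectifiers Kcnj1, Kcnj8 and Kcnj11. To these came the sulfonylurea receptor Abcc9, the two-pore channel Kcnk3, the KCNQ channel Kcnq3, the voltage-gated alpha subunit Kcnc4 and the beta subunit Kcnab2. Just inside the limit lay Kcnc4, with a mean of 8.14. Just outside lay the brighter probe set of Abcc8 and the dimmer one of Kcnab2, both with 7.94.

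The families differed in how many of their probe sets were bright. Calcium- or sodium-activated subunits had 4 bright of 9 probe sets, ether-a-go-go subunits 4 of 11, sulfonylurea receptors 2 of 5 and two-pore subunits 2 of 4. Inward rectifiers had 3 of 22, and voltage-gated alpha subunits, the largest family beside them, 1 of 22. The KCNE subunits and the silent voltage-gated subunits had 0 of 2 and 0 of 5. A probe set's signal depends on its probes as well as on its transcript, so levels are not compared between probe sets, and a dim value does not show that the gene was not transcribed.

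**Figure D1:**
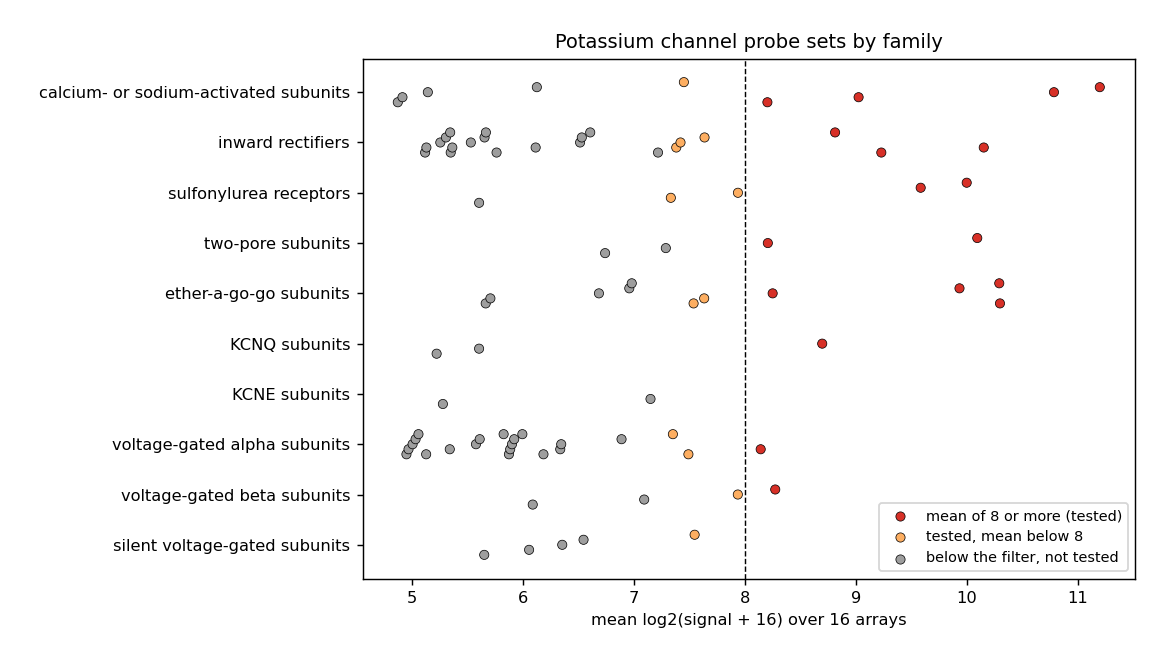
Mean log2(signal + 16) over the 16 arrays (horizontal axis) of each of the 87 potassium channel probe sets, by family, in red where bright, in orange where tested but below 8 and in grey where not tested. The dashed line stands at 8, with 18 points at or above it, the highest being Kcnmb1 at 11.20.

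The remaining 69 probe sets were dimmer, and 57 of them lay below the filter for testing, the 40th percentile of the mean over all probe sets (7.31). These 57 had means from 4.87 to 7.29 and were not tested, so 36 of the 56 genes have no test. They include Kcnj2 (mean 5.12) and Kcnj12 (mean 5.65), inward rectifiers known from muscle and endothelium, Kcnq1 (mean 5.22), a channel known for its part in the heartbeat, and Kcnn3 (mean 4.92), a small-conductance calcium-activated channel known from endothelium. The 30 probe sets tested belonged to 20 genes.

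The arrays differed in ways that touch several channels, and the part of these differences in the results below was tested only by the fits named with them. A fat score was computed for each array by averaging the log2 values of 30 genes from lists of general adipocyte and brown fat genes that hold no potassium channel; it was 12.70 ± 0.51 at 3 months, 12.83 ± 0.71 at 6, 11.66 ± 1.56 at 15 and 11.18 ± 0.60 at 28 months. At 15 months it was 13.12 and 12.89 on replicates 1 and 2 and 10.39 and 10.23 on replicates 3 and 4. All 22 tested genes of the adipocyte list and all 8 of the brown fat list had lower means at 28 than at 3 months, with 1 and 0 past the threshold in limma (13 and 5 at an unadjusted p under 0.05) and 10 and 4 past it when the replicate number was a block. Summed signals of the adipocyte list ran from 135284 to 325991 at 3 months and from 49233 to 123697 at 28 months. The 12 smooth muscle genes on the array were all bright, as the label of the tissue implies, and all 12 had higher means at 28 months (median 0.55), with 0 past the threshold at 28 against 3 months and 2 at an unadjusted p under 0.05. Of the nerve genes 8 were tested, with 3 higher and 5 lower and 1 past the threshold, and of the striated and cardiac muscle genes 9 were tested, with 4 higher and 5 lower, 0 past the threshold and 1 at an unadjusted p under 0.05. By the slope per month without the block 9 adipocyte and 5 brown fat genes fell, and 2 smooth muscle genes and 1 nerve gene rose. No striated and cardiac muscle gene passed. Of 6 tested genes each, 2 endothelial genes and 1 macrophage gene fell and 1 Schwann cell gene rose. Of all probe sets tested 7.41% rose and 5.89% fell by the slope, and 12.2% passed at 28 against 3 months with the block. Hybridisation took place on 2 days, day 1 for replicates 1 and 2 and day 2 for the rest. Every replicate number held 1 array of each age. Replicate 4 at 15 and at 28 months had the highest 3′ to 5′ ratios of beta-actin, 3.20 and 3.82, against at most 1.77 elsewhere. In bulk tissue, fewer cells of a type and less RNA per cell cannot be told apart.

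The ATP-sensitive channel of vascular smooth muscle is known to consist of Kcnj8, the pore, and Abcc9, the receptor that senses nucleotides and binds opener drugs. Both had higher means at 28 than at 3 months, by 0.95 for Kcnj8 and 0.55 for the brightest Abcc9 probe set, and Abcc9 rose per month of age. Of Kcnj11 and Abcc8, the subunits of the channel known from pancreatic beta cells, Kcnj11 fell per month of age. No contrast between ages of the brighter Abcc8 probe set passed without the fat score in the fit. Its means were 7.62 at 3 months, 8.43 at 6, 7.86 at 15 and 7.84 at 28.

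For Kcnj8 the values were 9.94, 8.16, 9.73 and 10.00 at 3 months and 10.00, 10.49, 10.25 and 10.66 at 6 months. They were 10.27, 10.09, 11.10 and 10.09 at 15 months and 10.57, 10.72, 10.49 and 9.84 at 28 months. Replicate 2 at 3 months was the lowest of the 16 arrays, and the values at 28 and at 3 months overlapped. The group means were 9.46 ± 0.87, 10.35 ± 0.29, 10.39 ± 0.48 and 10.41 ± 0.39, so the older ages lay close to each other. At 28 against 3 months the change was 0.95 (SE 0.36, 1.93-fold, 95% confidence interval 0.18 to 1.71) and did not pass the threshold in limma's moderated test (adjusted p = 0.162). Without replicate 2 at 3 months it was 0.52 (adjusted p = 0.325). It was 1.60 within day 1 and 0.30 within day 2.

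The brightest Abcc9 probe set read 9.61, 9.88, 9.71 and 9.69 at 3 months and 9.33, 9.66, 9.92 and 10.05 at 6 months. It read 10.05, 9.83, 10.56 and 10.57 at 15 months and 10.57, 10.26, 10.30 and 9.96 at 28 months. All 4 arrays at 28 months were above all 4 at 3 months, while the 15-month arrays overlapped both. It rose by 0.0243 log2 units per month of age (SE 0.00776, limma adjusted p = 0.047, and 0.0327 with the replicate number as a block). Between the end ages alone the change of 0.55 (SE 0.21, 1.46-fold, 95% confidence interval 0.10 to 1.00) did not pass (adjusted p = 0.162). It was 0.67 within day 1 and 0.43 within day 2.

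Abcc9 has further probe sets that were read less clearly. The second bright one read 9.23, 9.69, 9.10 and 9.97 at 3 months and 9.70, 9.46, 9.91 and 10.23 at 28 months, overlapping, with a change of 0.33 (SE 0.22, adjusted p = 0.397). The third tested one, at a mean of 7.33, varied from 5.87 to 9.05 among the 28-month arrays alone and changed by 0.51 (SE 0.69, adjusted p = 0.691). The direction of the third was not steady: it was 2.32 within day 1 (adjusted p = 0.0181), -1.30 within day 2 (adjusted p = 0.488) and -0.11 when fat score and replicate block were both fitted. The second was higher within both days, by 0.12 and 0.54.

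The brighter Kcnj11 probe set read 9.15, 8.99, 9.26 and 9.08 at 3 months and 9.59, 9.67, 9.28 and 8.91 at 6 months. It read 9.86, 9.08, 8.62 and 7.77 at 15 months and 7.96, 6.64, 8.60 and 8.51 at 28 months. The 3-month arrays lay close together, and all 4 at 28 months were below all 4 at 3 and at 6 months. It fell by 0.0533 log2 units per month (SE 0.015, limma adjusted p = 0.0336, and 0.0169 with the block). At 28 against 3 months it was lower by a log2 change of -1.19 (SE 0.42, 2.29-fold, 95% confidence interval -2.09 to -0.30), with an adjusted p of 0.147. Without replicate 2 at 28 months the change was -0.76. It was -1.77 within day 1 and -0.62 within day 2.

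The dimmer Kcnj11 probe set, whose name shares its root with the brighter one, read 7.51, 7.51, 8.61 and 7.07 at 3 months and 6.57, 6.63, 6.43 and 6.73 at 28 months. Its groups at these ages did not overlap either, and its change of -1.09 (SE 0.54) had an adjusted p of 0.243. The brighter Abcc8 probe set, chosen for description after its values were seen, read 8.66, 7.46, 8.12 and 6.24 at 3 months. It read 9.09, 8.55, 8.60 and 7.49 at 6 months and 9.66, 9.48, 6.43 and 5.86 at 15 months. It read 8.96, 7.71, 8.88 and 5.81 at 28 months, and its changes of 0.81 at 6 and 0.22 at 28 against 3 months (SE 0.87 each, adjusted p = 1.0 and 0.904) were smaller than their errors. At 15 months Abcc8 was high on the arrays with a high fat score and low on the others.

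**Figure D2:**
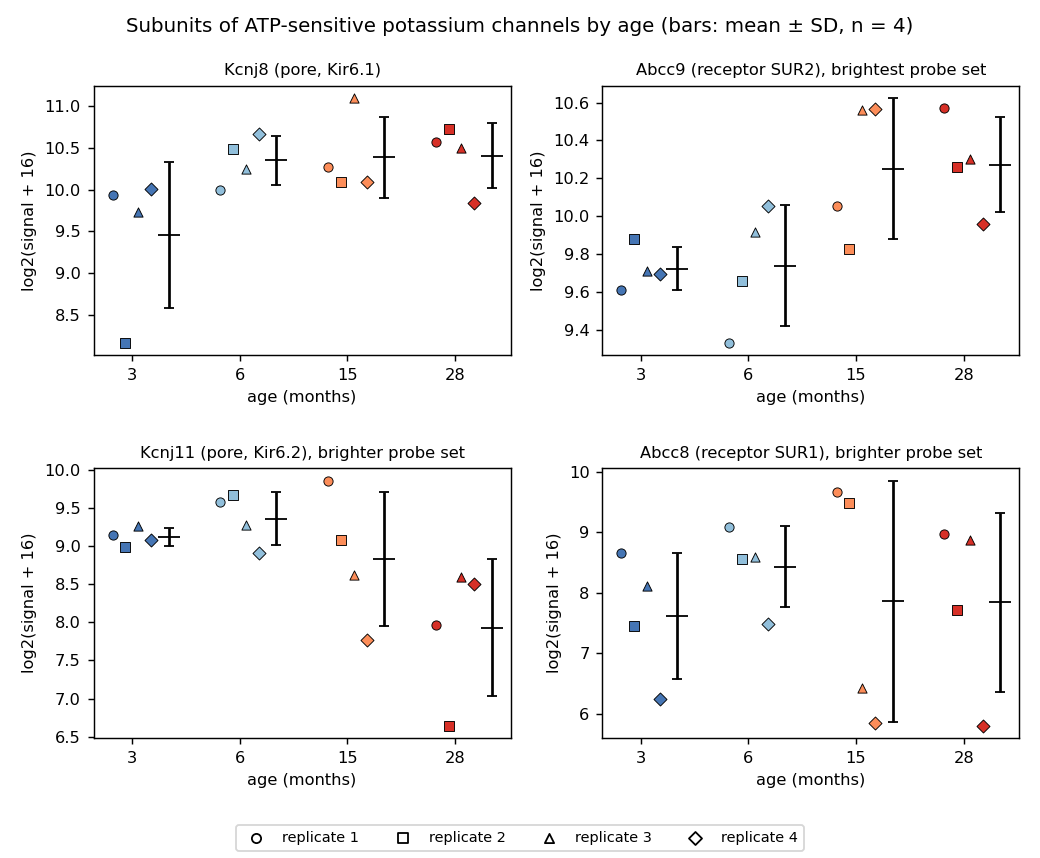
Log2(signal + 16) by age in months for Kcnj8 and for the brightest probe sets of Abcc9, Kcnj11 and Abcc8; symbols are single arrays by replicate number, and bars are the mean ± SD of 4 arrays. The 28-month arrays of Abcc9 lie above all those at 3 months and those of Kcnj11 below, while the arrays of Abcc8 spread widely within each age.

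Kcnk3 forms a two-pore channel that carries a background potassium current blocked by acid. It is known from arterial smooth muscle, and in the mouse also from brown fat cells. Both of its probe sets were bright and fell with age. The brighter one read 11.06, 10.96, 10.20 and 9.92 at 3 months and 10.40, 10.75, 10.39 and 10.03 at 6 months. It read 10.56, 10.35, 9.12 and 9.37 at 15 months and 9.58, 10.06, 9.54 and 9.17 at 28 months. The 28-month arrays were the lowest group but overlapped those at 3 months, and at 15 months replicates 1 and 2 lay about a unit above replicates 3 and 4.

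The dimmer Kcnk3 probe set showed the same order in wider steps. It read 10.06, 10.09, 9.26 and 7.87 at 3 months and 9.94, 10.07, 9.29 and 6.79 at 6 months. It read 9.37, 9.54, 6.35 and 5.48 at 15 months and 7.06, 8.46, 6.34 and 5.31 at 28 months. Replicate 4 was the lowest array of its age at every age, and the ages overlapped.

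Per month of age the brighter probe set fell by 0.0387 log2 units (SE 0.0117, limma adjusted p = 0.0417, and 0.00339 with the block). The dimmer one fell by 0.103 (SE 0.0331, adjusted p = 0.0475, and 0.000964 with the block). At 28 against 3 months the changes were -0.95 (SE 0.34, 1.93-fold lower) and -2.53 (SE 0.96, 5.76-fold lower). Neither passed without the block (adjusted p = 0.147 and 0.162), and both passed with it (0.018 and 0.0066), as they did in the F test over the 4 ages with the block (0.0395 and 0.0145). The 95% confidence intervals of the 28 against 3 month changes ran from -1.66 to -0.24 and from -4.56 to -0.49. Both probe sets were lower within each day, by -1.20 and -2.32 within day 1 and by -0.71 and -2.73 within day 2.

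The fat score moved with Kcnk3. Once the score entered the model, the 28 against 3 month changes were -0.25 (adjusted p = 0.797) for the brighter and -0.30 (adjusted p = 0.913) for the dimmer probe set. With the score and the replicate block together they were -0.50 (adjusted p = 0.69) and -1.38 (adjusted p = 0.422), so the size that is left depends on the block. The brown fat genes are part of the score, so they are no separate measure beside it. Their summed signal ran from 79912 to 166218 at 3 months and from 21959 to 62042 at 28 months. That of the adipocyte list, also part of the score, ran from 135284 to 325991 and from 49233 to 123697. Which cells the Kcnk3 signal came from was not tested.

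**Figure D3:**
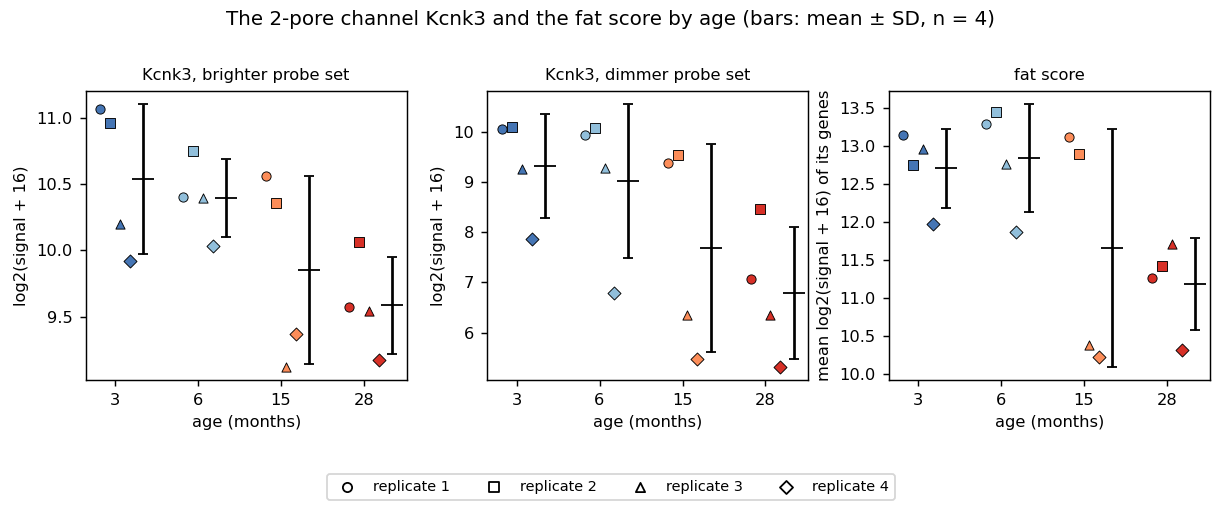
Log2(signal + 16) of both Kcnk3 probe sets and the fat score of the same arrays, by age in months; symbols are single arrays by replicate number, and bars are the mean ± SD of 4 arrays. Replicates 3 and 4 at 15 months, with fat scores of 10.39 and 10.23, lie below replicates 1 and 2 in all 3 panels.

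The BK channel, which opens with calcium and with depolarisation, is known to be formed in smooth muscle by Kcnma1, the pore, and Kcnmb1, the beta subunit that raises its calcium sensitivity. No BK probe set passed any of the tests of age with all arrays, and the 4 tested ones had their highest mean at 28 months. The brighter Kcnmb1 probe set read 10.75, 11.44, 10.71 and 11.71 at 3 months and 11.01, 10.80, 10.81 and 11.68 at 6 months. It read 10.99, 10.82, 11.34 and 11.32 at 15 months and 11.54, 11.23, 11.65 and 11.31 at 28 months. The groups overlapped throughout, and the change at 28 against 3 months was 0.28 (SE 0.25, adjusted p = 0.538, 95% confidence interval -0.26 to 0.82).

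The second Kcnmb1 probe set read 9.90, 10.64, 10.38 and 11.31 at 3 months and 11.13, 11.64, 11.17 and 10.68 at 28 months. Its change was 0.60 (SE 0.44, adjusted p = 0.432, 95% confidence interval -0.33 to 1.52), with 1.11 within day 1 (adjusted p = 0.0467) and 0.08 within day 2. In the fit that held the fat score too, the changes of the 2 probe sets were -0.06 and -0.19, so neither direction held.

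Kcnma1 was read by 4 probe sets, of which 1 was bright, 1 more was tested and the others were dim, with means of 6.13 and 4.87. The bright one read 7.67, 8.52, 7.97 and 7.52 at 3 months and 8.95, 8.27, 8.80 and 7.93 at 28 months, overlapping, with a change of 0.57 (SE 0.42, adjusted p = 0.44). The tested dimmer one read 6.42, 7.77, 6.69 and 7.33 at 3 months and 8.74, 9.50, 8.16 and 6.79 at 28 months. Its change of 1.25 (SE 0.67, adjusted p = 0.279) was the highest of the 30 members tested and did not pass either. It was 2.03 within day 1 and 0.47 within day 2, and it turned to -0.36 when fat score and replicate block were both fitted. Kcnn1, of the small-conductance channels, was level, at 8.88 ± 0.37 at 3 months and 9.01 ± 0.27 at 28 months.

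Among the voltage-gated channels the ether-a-go-go family held 4 bright probe sets, from Kcnh2 and Kcnh3, and none passed a test of age. Kcnh2, known for the rapid delayed rectifier current of the heart, had a pair of bright probe sets that differed in sign. The brighter read 10.14, 9.97, 9.59 and 10.50 at 3 months and 10.83, 10.76, 10.48 and 10.20 at 28 months, a change of 0.52 (SE 0.31, adjusted p = 0.337). The other changed by -0.15 (adjusted p = 0.73). Kcnh3, known from the brain, read 10.47 ± 0.02 at 3 months and 10.28 ± 0.08 at 28 months in its brighter probe set, where the groups did not overlap but the change of -0.20 was small (adjusted p = 0.508). Its dimmer probe set changed by 0.27 (adjusted p = 0.705).

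Kcnc4, which forms fast voltage-gated channels, read 8.12 ± 0.43 at 3 months and 8.56 ± 0.18 at 28 months. Kcnq3, a subunit of the M current of neurons, read 8.81 ± 0.32 and 8.72 ± 0.51 at these ages. The beta subunit Kcnab2 read 8.42 ± 0.26 and 8.31 ± 0.46 in its bright probe set, a change of -0.11. Its dimmer probe set went the other way, at 7.91 ± 0.26 and 8.13 ± 0.32, a change of 0.22 (limma adjusted p = 0.734). Kcnj1, an inward rectifier known from the kidney, read 9.43 ± 0.14 and 9.26 ± 0.23 in its bright one. For each of these 4 the difference between 28 and 3 months was at most 0.44 and did not pass the threshold.

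Kcna5, a voltage-gated alpha subunit known from arterial smooth muscle, was below the limit for bright, with a mean of 7.49, and was chosen for description after its values were seen. It read 7.23, 9.18, 8.23 and 8.02 at 3 months, 8.56, 8.50, 7.02 and 6.89 at 6 months, 6.90, 7.14, 6.70 and 6.74 at 15 months, and 6.53, 7.40, 7.70 and 7.09 at 28 months. All 4 arrays at 15 months were below all 4 at 3 months, and those at 28 months overlapped them. No overlap at 15 against 3 months held for 2 of the 30 members, against 2.97% of all probe sets tested. The other was Kcnj8, higher at 15 months. The limma changes of Kcna5 were -1.29 at 15 against 3 months (adjusted p = 0.578) and -0.99 at 28 against 3 months (SE 0.45, adjusted p = 0.215), and neither passed.

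Across all members the tests of pairs of ages called none of the 30 probe sets in limma's moderated tests. At 6 against 3 months 0 passed and 1 had an unadjusted p under 0.05, where the shares of all 5250 probe sets tested were 0.0% and 2.88%. At 15 against 3 months 0 passed and 3 had an unadjusted p under 0.05, against 0.0952% and 7.09% of all. At 28 against 3 months 0 passed and 6 had an unadjusted p under 0.05, against 1.28% and 22.4% of all. With the replicate number as a block 2 passed, both of Kcnk3, against 12.2% of all. At 28 against 15 months 0 passed and 1 had an unadjusted p under 0.05, against 0.0% and 3.52% of all. The F test over the 4 ages called 0 and 4 had an unadjusted p under 0.05, against 0.648% and 15.9%; with the block 2 were called, against 5.92%.

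The slope per month called 4 of the 30, which is 13.3%, and the share over all probe sets tested was 13.3% as well; 8 had an unadjusted p under 0.05, against 32.1% of all. Abcc9 was the 1 that rose, against 7.41% of all, and Kcnj11 and both Kcnk3 probe sets were the 3 that fell, against 5.89%. With the block the same 4 members passed, against 25.2% of all. None of the 4 slopes passed within day 2 alone, with no filter on dim probe sets or with the fat score in the fit. None passed without replicate 4 at 28 months, and several other single arrays had the same effect when left out. With the cRNA note as a covariate none passed either. That note marked no array younger than 15 months, so this covariate overlaps with age. The fit therefore cannot separate the note from an age effect. Of the 30 members 4 had no overlap between 28 and 3 months (Abcc9 above, and Kcnh3 and both Kcnj11 probe sets below), and over all probe sets tested that share was 17.7%, with 10.4% higher and 7.3% lower at 28 months. The mean at 28 months was below that at 3 months for 15 of the 30, against 44.8% of all. The median change at 28 against 3 months was 0.05 over the members and 0.06 over all, and the members ran from -2.53 to 1.25. Of the 18 bright members 8 had lower means at 28 months.

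**Figure D4:**
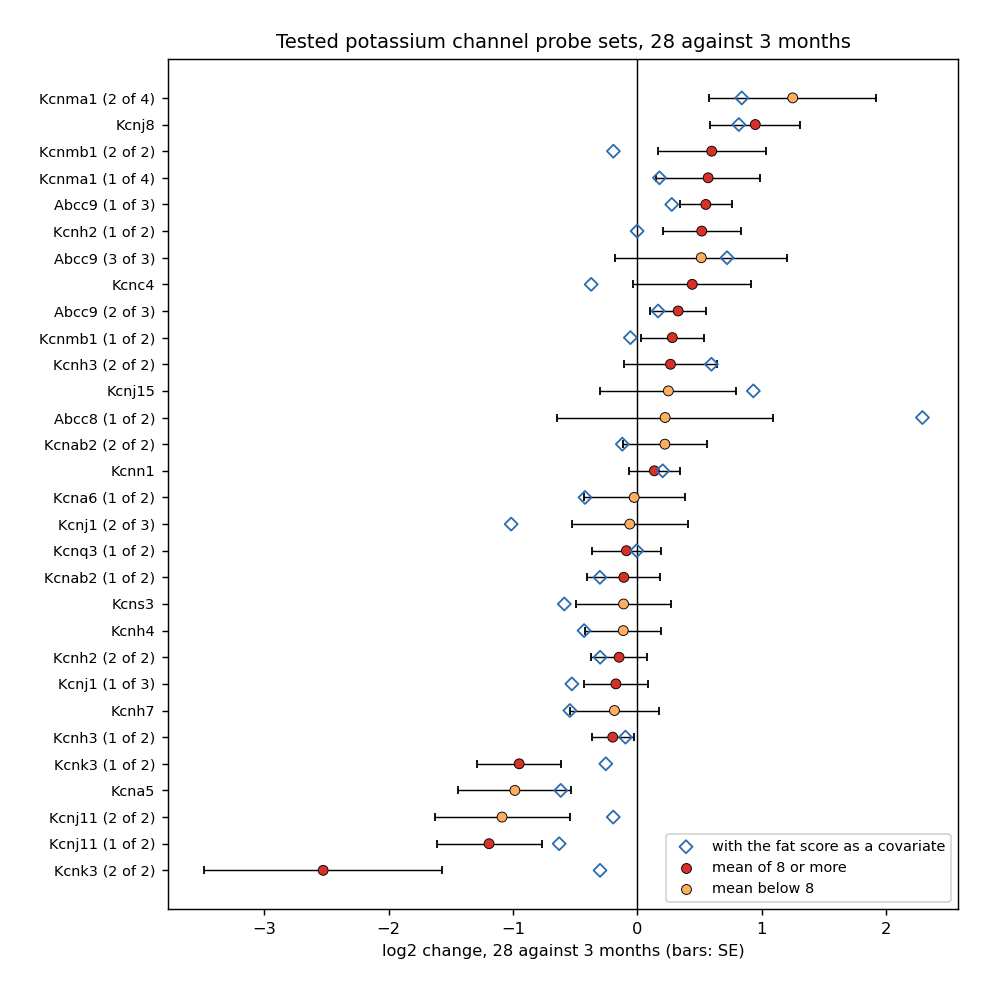
Log2 change at 28 against 3 months of the 30 tested potassium channel probe sets, with bars of 1 SE from limma, and the same change with the fat score as a covariate as open diamonds. The changes run from -2.53 for Kcnk3 to 1.25 for Kcnma1, and with the score both Kcnk3 diamonds lie nearer 0, at -0.25 and -0.30 (-0.50 and -1.38 with the replicate block as well, not drawn).

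Some channels moved with the fat score beside the age means. Its coefficient passed the threshold for 8 of the 30 members, against 37.3% of all probe sets tested, and for 2 with the block, against 11.9%. It was above 0 for 4 members, against 15.1% of all: Abcc8 (1.36 log2 units per unit of score, adjusted p = 5.98e-06), the dimmer and the brighter Kcnk3 probe set (1.46, adjusted p = 2.09e-05, and 0.457, adjusted p = 0.000516) and the dimmer Kcnj11 probe set (0.587, adjusted p = 0.0208). It was below 0 for 4 members, against 22.2% of all: the dimmer probe sets of Kcnj1 (-0.626, adjusted p = 0.00139) and Kcnmb1 (-0.519, adjusted p = 0.00532), Kcnc4 (-0.534, adjusted p = 0.0136) and the brighter one of Kcnh2 (-0.341, adjusted p = 0.0139). With the block Abcc8 (adjusted p = 0.00509) and the dimmer Kcnk3 probe set (0.0359) passed.

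With the score as a covariate 1 member passed at 28 against 3 months, against 0.743% of all probe sets. This was the brighter Abcc8 probe set, with a change of 2.29 (adjusted p = 0.026), which with the block as well was 1.97 (adjusted p = 0.228). Without the score its limma change was 0.22 (adjusted p = 0.904). The dimmer Abcc8 probe set, below the filter and not tested, had means of 5.58 at 3 and 5.01 at 28 months. The mean score fell from 12.70 at 3 to 11.18 at 28 months, so the 2.29 is a change at equal score, not the measured difference. With the score the change of the brighter Kcnj11 probe set was -0.63 (adjusted p = 0.709), and -0.17 with the block as well. That of Kcnj8 was 0.81 with the score (adjusted p = 0.557) and that of the brightest Abcc9 probe set 0.28 (adjusted p = 0.731). The slope called 1 member with the score in the fit, again the brighter Abcc8 probe set (0.086 per month, adjusted p = 0.0365), against 0.59% of all.

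**Figure D5:**
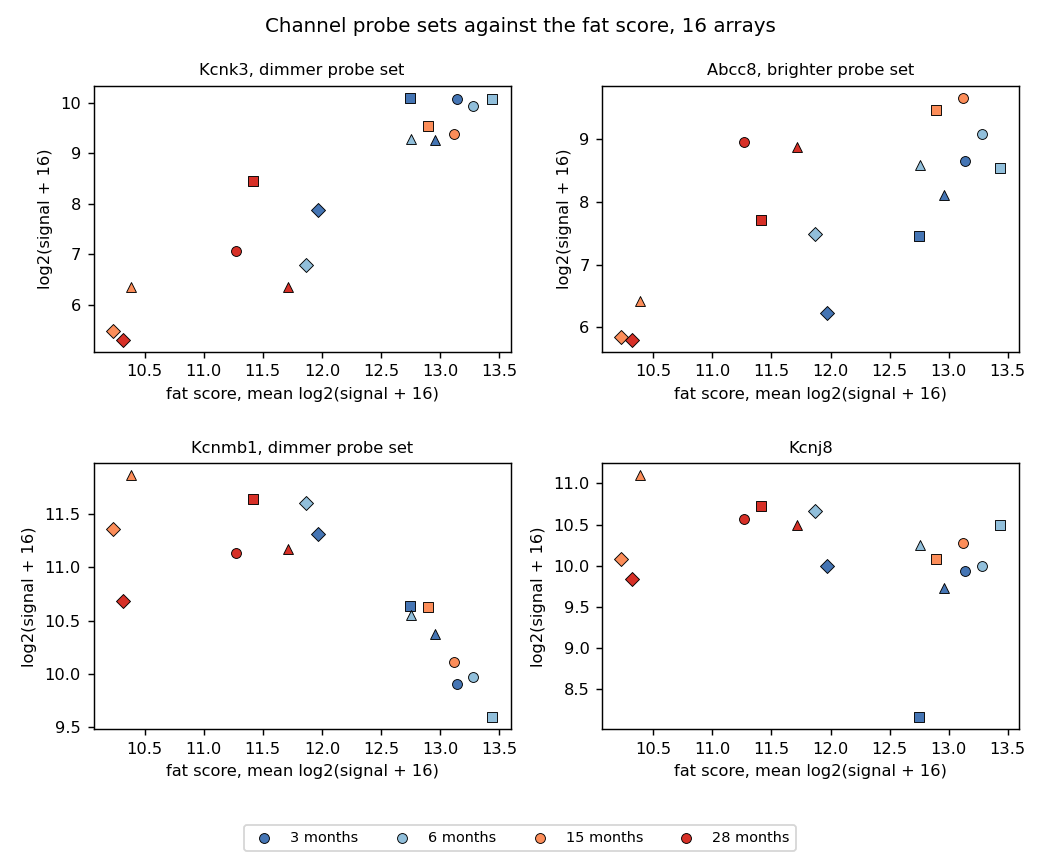
Log2(signal + 16) of 4 channel probe sets against the fat score of the same array (mean log2 value of its genes), with colours for age and symbols for replicate number. The dimmer Kcnk3 probe set and Abcc8 are higher on arrays with a higher score, and the dimmer Kcnmb1 probe set is lower on them, while the coefficient of Kcnj8 did not pass the threshold.

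Other genes that move ions in the vessel wall were counted from lists. Of the calcium channels 10 were tested, with 6 higher and 4 lower at 28 than at 3 months and 0 past the threshold (2 at an unadjusted p under 0.05); with the block 1 passed, Cacna2d1, an auxiliary subunit, with a change of 1.40 (adjusted p = 0.0864, and 0.0055 with the block). Of the chloride channels and cotransporters 8 were tested, with 4 higher and 4 lower and 0 past the threshold (3 at an unadjusted p under 0.05); with the block 1 passed, the sodium, potassium and chloride cotransporter Slc12a2, with a change of -1.05 (adjusted p = 0.0882, and 0.0138 with the block). Of 6 sodium pump genes 3 were higher and 3 lower, of 5 sodium channel genes 2 and 3, and of 10 genes of the calcium store 7 and 3, each with 0 past the threshold (0, 1 and 3 at an unadjusted p under 0.05). By the slope per month without the block 1 calcium channel gene rose (Cacna2d1, limma adjusted p = 0.0199). Among the chloride genes 1 rose (Clcn3) and 2 fell (Clcn4 and Slc12a2). In the calcium store list 2 genes rose (Orai1 and Pln, the latter also in the smooth muscle list). Of the sodium pump and sodium channel genes 0 and 0 passed, with 2 and 1 at an unadjusted p under 0.05. Their medians at 28 against 3 months were 0.21 for calcium channels, 0.11 for the sodium pump and -0.07 for sodium channels. They were 0.02 for chloride channels and 0.09 for the calcium store, beside 0.06 over all probe sets tested. Of all probe sets tested, 1.28% passed at 28 against 3 months and 12.2% with the block. By the slope 7.41% of all rose and 5.89% fell. At an unadjusted p under 0.05 the shares were 22.4% at 28 against 3 months and 32.1% by the slope.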

How the data were processed

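RNA from descending thoracic aorta of 16 rats, 4 per age, was measured on 1 array each; the array records name a different rat for every array. The authors deposited 1 table of intensity values, linear signals made with MAS5 per the submitters' processing notes, with version and settings not given in the sources used here. They were already scaled: the mean after trimming 2% at each end was 1001.7 to 1002.0 on each array (medians 223.5 to 267.7), so nothing further was scaled. The deposited array records, of type other, gave the hybridisation day, fluidics station, chip lot and a note on cRNA whose meaning is not stated. The cRNA note was absent from every array younger than 15 months, so it overlaps with age. Detection calls were not used. Precision is limited by the number of arrays.

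Values were taken as log2(signal + 16), which understates changes of dim probe sets. Controls (59) and probe sets below the 40th percentile of the mean were left out, which left 5250. A joint model of the 16 arrays was fitted by limma 3.58.1 (R 4.3.3; lmFit, then eBayes with trend), with 12 residual degrees of freedom and Benjamini-Hochberg adjustment over the 5250 probe sets. The threshold was 0.05, and tests were 2-sided. Ages were compared by 4 contrasts, by a moderated F test and by a slope per month.

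Bright members, and members past the threshold in any test with or without the replicate block, were named with values, as were at most 4 genes per ion transport list that passed at 28 against 3 months. Abcc8, Kcna5 and the dim Kcnj2, Kcnj12, Kcnq1 and Kcnn3 were added after their values were seen. So were the dimmer probe sets of Kcnj11, Kcnma1, Kcnab2 and Abcc8, the third of Abcc9 and the ion transport genes named for their slope. Members and lists were chosen with earlier results of these data known. Symbols are those of the platform annotation, and all 87 members matched the RefSeq gene table by gene identifier. Of the channel genes, 41 of 56 had a RefSeq promoter.

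By the array records each replicate number stands for 1 fluidics station on 1 day, with 1 array of each age, so the numbers pair the arrays by station and day, though not by animal. Deviations from the age means correlated at a median of 0.171 over the 24 pairs of the same number (-0.315 to 0.628, 13 over 0.1). Over the 72 pairs that differ in number and age the median was -0.034 (-0.680 to 0.579, 19 over 0.1), so the ranges overlapped widely. The fit without the block is reported, with the blocked value where it changes the call of a member. Gene lists were counted without the block unless stated. It changed further calls there, such as the slope of Itpr1 (limma adjusted p = 0.0637, and 0.0164 with the block). Alternatives covered blocks, days, lots, pseudocounts, filters, quantile normalization, the fat score, the beta-actin ratio, the cRNA note and each array left out. The limma code was tested on simulated data.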

Additional observations from a re-analysis of the deposited data

Results flagged for a closer look

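In 72 groups of 4 arrays, the 18 bright probe sets at each of the 4 ages, the highest and the lowest array were each compared with the rest by Dixon's ratio, for which chance marks about 1 in 20 groups; 2 stood apart. Kcnj8 at 3 months read 8.16 on replicate 2, while the other arrays of that age read 9.73 to 10.00. Kcnn1 at 28 months read 9.42 on replicate 4, while the others read 8.86 to 8.90.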

How the results depend on the processing

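Counts at 6 against 3 and at 15 against 3 months were 0 under all 32 alternatives. The share of all probe sets tested follows each count in parentheses. At 28 against 3 months the count of 0 was 2 with the replicate block (12.2%), the day block (8.86%) or the chip lot block (6.13%), 5 within day 1 (13.3%), 1 with only the arrays of the ages compared (10.2%) and 1 with the fat score (0.743%). It was 2 without replicates 3 and 4 at 15 months (9.26%), an alternative chosen after seeing the data. At 28 against 15 months it was 2 within day 1 (9.81%). The F test called 2 with the replicate block (5.92%) or the day block (2.76%) and 6 within day 1 (13.9%). The 4 slopes became 7 within day 1 (15.5%), 1 with the fat score (0.59%), and 0 within day 2 (0.0%), with no filter (4.05%), with fat score plus replicate block (0.0762%), when the 2 arrays of high beta-actin ratio were dropped (3.28%) and with the cRNA note (1.5%). Leaving out 1 array gave 0 to 5: 0 when the array dropped was replicate 1 or 3 at 3 months, 1, 2 or 3 at 6 months or 1 or 4 at 28 months (2.93% to 6.29%), 1 for replicate 2 at 3 months or 3 at 28 months (8.9% and 8.36%), and 2 for replicate 2 at 28 months (4.48%). Otherwise it lay between 3 and 5. The count with the cRNA note is limited by the overlap of that note with age.

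Some log2 changes of bright probe sets at 28 against 3 months changed sign, and the turned values did not pass the threshold. With the fat score they were -0.057 and -0.19 for the Kcnmb1 probe sets, -0.0024 for the brighter Kcnh2 and -0.37 for Kcnc4; with the replicate block as well, -0.18 for the dimmer Kcnmb1, -0.18 for the brighter Kcnh2, -0.033 for the bright Kcnma1 and -0.62 for Kcnc4. The dimmer Kcnmb1 passed within day 1, at 1.11. Within day 1 Kcnn1 was -0.26, Kcnq3 0.082 and Kcnab2 0.030, and within day 2 the dimmer Kcnh3 was -0.16. With the arrays of high beta-actin ratio dropped, the dimmer Kcnh2 was 0.0074, Kcnn1 -0.00057, Kcnq3 0.15 and Kcnab2 0.10, and with the cRNA note Kcnq3 was 0.020. Leaving out 1 array gave -0.25 to 0.15 for Kcnq3, -0.26 to 0.10 for Kcnab2, -0.29 to 0.0074 for the dimmer Kcnh2 and -0.00057 to 0.31 for Kcnn1. The causes were not tested. Signal over background limits what is shown of the 57 untested probe sets.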
